A study of Mus musculus with 6 samples.

Results

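The genes described here are 10 transcription factors and cofactors of the erythroid and megakaryocyte lineages: Gata1, Gata2, Tal1, Lmo2, Lyl1, Ldb1, Klf1, Zfpm1, Nfe2 and Gfi1b. They were chosen by name, and every probe that carried the symbol or a RefSeq accession of a member was kept. This gave 11 probes of 10 genes out of 55664 probes with a value on all arrays, which carried the names of 20662 genes. Zfpm1 had 2 probes and each other member had 1.

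The series asked which genes depend on Satb1, a chromatin organiser, in early blood progenitors of the fetal liver. Satb1-null embryos and their wild type (WT) littermates, all on a C57BL6/J background and all at E18.5 of gestation, gave 3 sorted populations each. The stem cell gate (HSC, haematopoietic stem cells) took lineage-negative cells with high c-kit, Sca-1 and no Flt3. The gate for lymphoid-primed multipotent progenitors (LMPP) differed in requiring Flt3. The gate for common lymphoid progenitors (CLP) took lineage-negative, IL7Rα+ cells with little c-kit or Sca-1. All 6 groups had 1 array only, so a difference between 2 arrays has no replicate check and no p-value. The labels state neither the Satb1 allele, nor pooling of embryos, nor whether embryos were shared between the populations.

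Values are log2 intensities centred on each array's 75th percentile, so 0 is that percentile and a difference of 1 is 2-fold. By the scanner software 52.4% to 57.7% of spots were well above background, and no spot was saturated. Of the sort markers, Flt3 peaked in LMPP, Il7r peaked in CLP and Kit was lowest in CLP, whatever the genotype. The Satb1 probe stood at -0.59, 1.96 and 0.65 in Satb1-null HSC, LMPP and CLP, against -0.03, 2.0 and 0.71 in WT, and whether it lies in the deleted sequence is unknown, so it does not check the labels. Xist lay between 4.18 and 4.74 on the Satb1-null arrays and was not well above background on any WT array. The Y-linked gene Eif2s3y lay between -2.05 and -0.25 on the Satb1-null arrays and between 0.38 and 0.98 on the WT arrays. Satb1-null and WT arrays also filled different rows of the slide, so genotype, sex-linked signal and slide row cannot be told apart. Gata1 is itself an X-linked gene.

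GATA factors bind the DNA word GATA and work in complexes. A GATA protein and a basic helix-loop-helix protein, Tal1 or its relative Lyl1, which binds DNA with an E protein, are held together by the LIM-only protein Lmo2 and the adaptor Ldb1. Gata2 acts in stem and early progenitor cells and in mast cells, and Gata1 takes its place as red cells and megakaryocytes mature. Zfpm1 encodes FOG1, a zinc finger partner of Gata1. Klf1 activates globin and other red cell genes, Nfe2 is the large subunit of the factor NF-E2 needed for platelet release, and Gfi1b is a repressor needed in both lineages.

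Promoter sequence is shown for the 4 members whose probes were past 2-fold higher in CLP than in LMPP in both genotypes, Klf1, Tal1, Gfi1b and Gata1, because shared GATA words near their starts are a natural thing to look for. The sequences come from RefSeq for assembly GRCm38.p6 and run 5′ to 3′ along the gene, from 250 bases before its start to 50 bases after it. Capitals mark a GATA word on either strand, that is the letters GATA with A or T before them and A or G after them. The windows are chr8:84901732-84902031 on the plus strand for Klf1, chr4:115056176-115056475 on the plus strand for the first Tal1 start, chr2:28621933-28622232 on the minus strand for Gfi1b and chrX:7967861-7968160 on the minus strand for Gata1.
Klf1: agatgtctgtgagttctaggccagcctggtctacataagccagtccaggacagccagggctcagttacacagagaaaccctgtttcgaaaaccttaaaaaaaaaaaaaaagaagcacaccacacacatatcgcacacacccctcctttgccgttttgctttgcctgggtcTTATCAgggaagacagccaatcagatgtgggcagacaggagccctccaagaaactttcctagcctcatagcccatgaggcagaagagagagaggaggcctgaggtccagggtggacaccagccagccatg
Tal1: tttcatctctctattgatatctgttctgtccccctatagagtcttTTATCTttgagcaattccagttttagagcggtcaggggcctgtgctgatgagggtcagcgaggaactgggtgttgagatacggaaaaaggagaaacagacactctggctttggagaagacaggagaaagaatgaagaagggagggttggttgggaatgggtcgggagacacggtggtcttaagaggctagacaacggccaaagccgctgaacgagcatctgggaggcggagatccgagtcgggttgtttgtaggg
Gfi1b: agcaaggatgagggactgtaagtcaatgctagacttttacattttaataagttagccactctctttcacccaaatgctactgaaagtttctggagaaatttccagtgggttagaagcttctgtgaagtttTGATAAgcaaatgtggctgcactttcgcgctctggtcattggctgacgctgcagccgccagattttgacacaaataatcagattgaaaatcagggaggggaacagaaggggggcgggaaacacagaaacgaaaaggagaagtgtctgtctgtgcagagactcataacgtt
Gata1: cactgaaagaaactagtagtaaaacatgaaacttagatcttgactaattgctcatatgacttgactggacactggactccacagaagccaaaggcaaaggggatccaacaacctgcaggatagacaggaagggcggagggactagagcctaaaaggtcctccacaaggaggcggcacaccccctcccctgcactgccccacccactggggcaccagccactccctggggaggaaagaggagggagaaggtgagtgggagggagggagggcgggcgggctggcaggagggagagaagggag

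Counted from the start of the gene, the capitals begin at -80 in Klf1, at -205 in Tal1 and at -120 in Gfi1b. The Gata1 window held no GATA word. Of the 10 members 8 were matched to RefSeq windows, 12 windows in all, since some genes have several starts. A GATA word stood in 4 of these 12 windows, those of Klf1, Tal1 and Gfi1b shown above and 1 of Ldb1 with the word at -240 and -200. Among 32851 windows of the same length over all genes, 29.76% held at least 1 such word. The E-box CANNTG, the word of basic helix-loop-helix proteins, stood in 7 of the 12 windows against 72.31% of all windows. The word CCNCNCCC, which covers the CACCC boxes bound by Klf1, stood in 10 of the 12 against 49.47% of all windows. The word TGANTCA, part of the site of NF-E2, stood in none of the 12 against 7.81% of all windows. Both strands were searched. Words of different motifs may overlap, and a match describes letters, not binding.

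All 11 probes were well above background on all 6 arrays except the Klf1 probe, which was not on the WT LMPP array. The probes differed widely in how far their level moved over the arrays. The span between the lowest and highest array was 5.28 for Klf1 and 4.72 for Gata1 on the log2 scale, 1.91 for Gata2, 1.88 for Gfi1b and 1.71 for Tal1. Lmo2, Ldb1 and both Zfpm1 probes spanned between 1.19 and 1.70. Lyl1 spanned 0.69 and Nfe2 0.22. The scanner's own error of a level was 0.14 for most spots and reached 0.33 for Klf1 in WT LMPP, and it holds no variation between animals, sorts or amplifications.

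**Figure D1:**
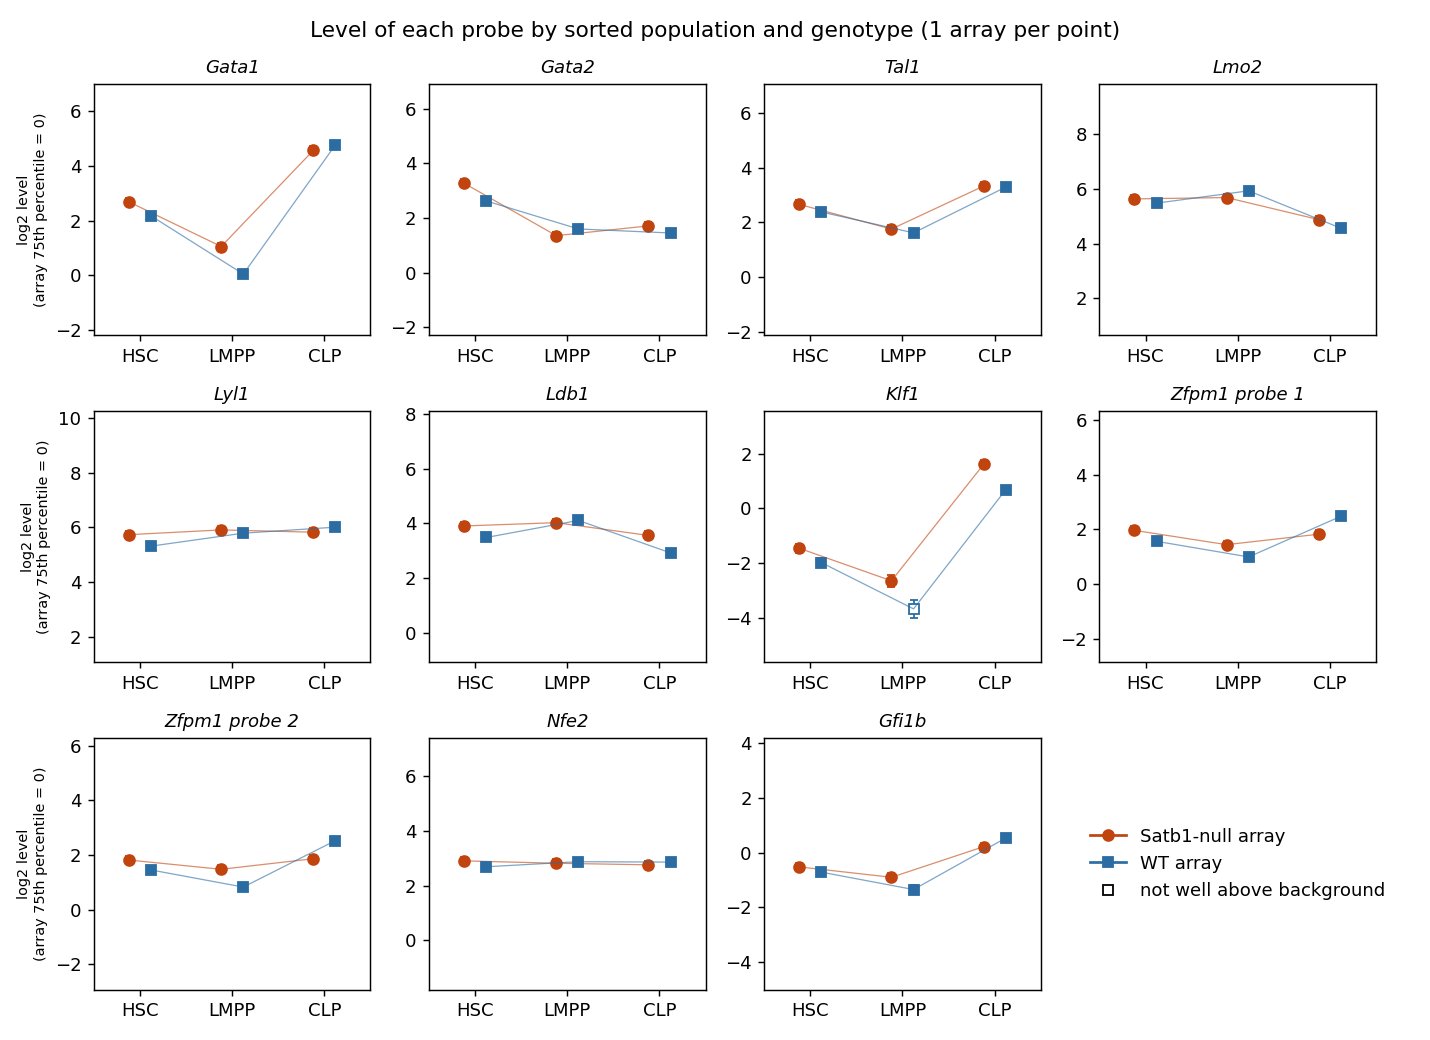
Each panel plots the log2 level of 1 probe (array 75th percentile at 0) in HSC, LMPP and CLP, with circles for Satb1-null arrays, squares for WT arrays, an open symbol where the spot was not well above background, and bars for the scanner error. Panels share the height of their scale but not its start. Gata1 and Klf1 dip in LMPP and peak in CLP in both genotypes, Gata2 is highest in HSC, and Nfe2 and Lyl1 stay within 0.22 and 0.69.

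Gata1, the GATA factor of red cell and megakaryocyte maturation, was lowest in LMPP and highest in CLP. Its log2 level measured 2.69 in HSC, 1.06 in LMPP and 4.57 in CLP of Satb1-null embryos, against 2.17, 0.05 and 4.77 in the same populations of WT embryos. The order HSC above LMPP and CLP above both held in each genotype, and no 2 populations overlapped. How many of all probes separate in this way was not counted, so overlap is only a description, here and for the other members. CLP stood 11.4-fold above LMPP on the Satb1-null arrays and 26.4-fold on the WT arrays. To test differences shared by both genotypes, population and genotype were fitted together over the 6 arrays with limma, for 33087 probes well above background on at least 2 arrays, with Benjamini-Hochberg adjustment over all of them. By this limma fit Gata1 rose by 4.12 in CLP relative to LMPP (SE 0.38, adjusted p = 0.0373). The Gata1 difference between CLP and HSC was 2.24 and did not pass (SE 0.38, limma adjusted p = 0.0692), though it passed with median centring, normexp, no detection filter or the brightest probe per gene, and that p ranged between 0.0115 and 0.0925.

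Gata2, the GATA factor of stem and early progenitor cells, had another profile, with its highest level in HSC. Its log2 level measured 3.27 in HSC, 1.36 in LMPP and 1.71 in CLP of Satb1-null embryos, against 2.62, 1.60 and 1.45 in WT embryos. HSC lay above LMPP and CLP in both genotypes, and LMPP and CLP overlapped. LMPP stood 3.77-fold below HSC on the Satb1-null arrays and 2.03-fold below on the WT arrays. Neither the difference of LMPP from HSC nor that of CLP from HSC passed in the limma fit, at -1.47 (SE 0.32, adjusted p = 0.588) and -1.36 (SE 0.32, adjusted p = 0.111).

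Tal1, the helix-loop-helix partner of the GATA factors, followed the same order as Gata1 with a smaller span. Its log2 level measured 2.66 in HSC, 1.75 in LMPP and 3.32 in CLP of Satb1-null embryos, against 2.38, 1.62 and 3.29 in WT embryos. The populations did not overlap, and the CLP values of both genotypes lay within 0.04 of each other. CLP was 2.97-fold above LMPP on the Satb1-null arrays and 3.18-fold on the WT arrays, and the limma difference of 1.62 (SE 0.25) missed the threshold at an adjusted p of 0.0610. That p lay between 0.0126 and 0.0804 under other settings, and it passed with normexp correction, with no detection filter and with the brightest probe per gene. Lyl1, the relative of Tal1 that can stand in for it in stem cells, stayed within a narrow range: 5.74 in HSC, 5.91 in LMPP and 5.83 in CLP of Satb1-null embryos, against 5.32, 5.79 and 6.01 in WT embryos. Its limma difference between CLP and LMPP was 0.07, with a 95% interval from -0.69 to 0.83.

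The 2 bridge proteins of the complex were at their lowest in CLP. Lmo2, which links the helix-loop-helix and GATA proteins, stood at 5.63 in HSC, 5.68 in LMPP and 4.88 in CLP of Satb1-null embryos, against 5.48, 5.93 and 4.57 in WT embryos. Ldb1, the adaptor that joins distant complexes into loops, stood at 3.91, 4.03 and 3.56 in Satb1-null HSC, LMPP and CLP, against 3.49, 4.11 and 2.92 in WT. For Lmo2 the CLP arrays lay below all others, and for Ldb1 the CLP arrays lay below the LMPP arrays but overlapped the HSC arrays. On the WT arrays CLP was 2.57-fold below LMPP for Lmo2 and 2.28-fold below for Ldb1. On the Satb1-null arrays it was 1.75-fold below for Lmo2 and 1.38-fold below for Ldb1. The limma differences of -1.08 for Lmo2 (SE 0.28, adjusted p = 0.132) and -0.83 for Ldb1 (SE 0.30, adjusted p = 0.223) did not pass.

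Klf1, the activator of globin genes, had the largest span of the members. Its log2 level measured -1.46 in HSC, -2.65 in LMPP and 1.60 in CLP of Satb1-null embryos, against -1.99, -3.68 and 0.67 in WT embryos, where the LMPP spot was not well above background. CLP lay above HSC and HSC above LMPP in both genotypes, with no overlap. CLP was 19.1-fold above LMPP on the Satb1-null arrays and at least 20.4-fold above it on the WT arrays. In the limma fit Klf1 rose by 4.30 in CLP relative to LMPP (SE 0.28, adjusted p = 0.0371) and by 2.86 relative to HSC (SE 0.28, adjusted p = 0.0404). With normexp background correction, which lifts dim spots, the first difference was 2.39 and still passed (limma adjusted p = 0.00525).

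Zfpm1, which encodes the Gata1 partner FOG1, was measured by 2 probes with nearly the same profile. Probe 1 stood at 1.97 in HSC, 1.44 in LMPP and 1.83 in CLP of Satb1-null embryos, against 1.57, 0.99 and 2.48 in WT embryos. Probe 2 stood at 1.81, 1.48 and 1.86 in Satb1-null HSC, LMPP and CLP, against 1.45, 0.83 and 2.53 in WT. LMPP was lowest in both genotypes, and CLP was 2.80-fold and 3.25-fold above LMPP on the WT arrays but 1.30-fold and 1.31-fold on the Satb1-null arrays. The limma differences between CLP and LMPP were 0.93 (SE 0.38, adjusted p = 0.262) and 1.04 (SE 0.41, adjusted p = 0.245). Whether the step differed between the genotypes was not tested, since each has 1 array per population.

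Nfe2, the NF-E2 subunit, had the flattest profile. It stood at 2.90, 2.81 and 2.76 in Satb1-null HSC, LMPP and CLP, against 2.69, 2.87 and 2.86 in WT, and all populations overlapped. The 95% interval of its limma difference between CLP and LMPP ran from -0.73 to 0.65. Gfi1b, the repressor, stood at -0.52 in HSC, -0.90 in LMPP and 0.22 in CLP of Satb1-null embryos, against -0.71, -1.35 and 0.53 in WT embryos. Its populations did not overlap, with CLP highest and LMPP lowest in both genotypes. CLP was 2.17-fold above LMPP on the Satb1-null arrays and 3.68-fold on the WT arrays, and the limma difference of 1.5 (SE 0.31, adjusted p = 0.0919) did not pass.

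**Figure D2:**
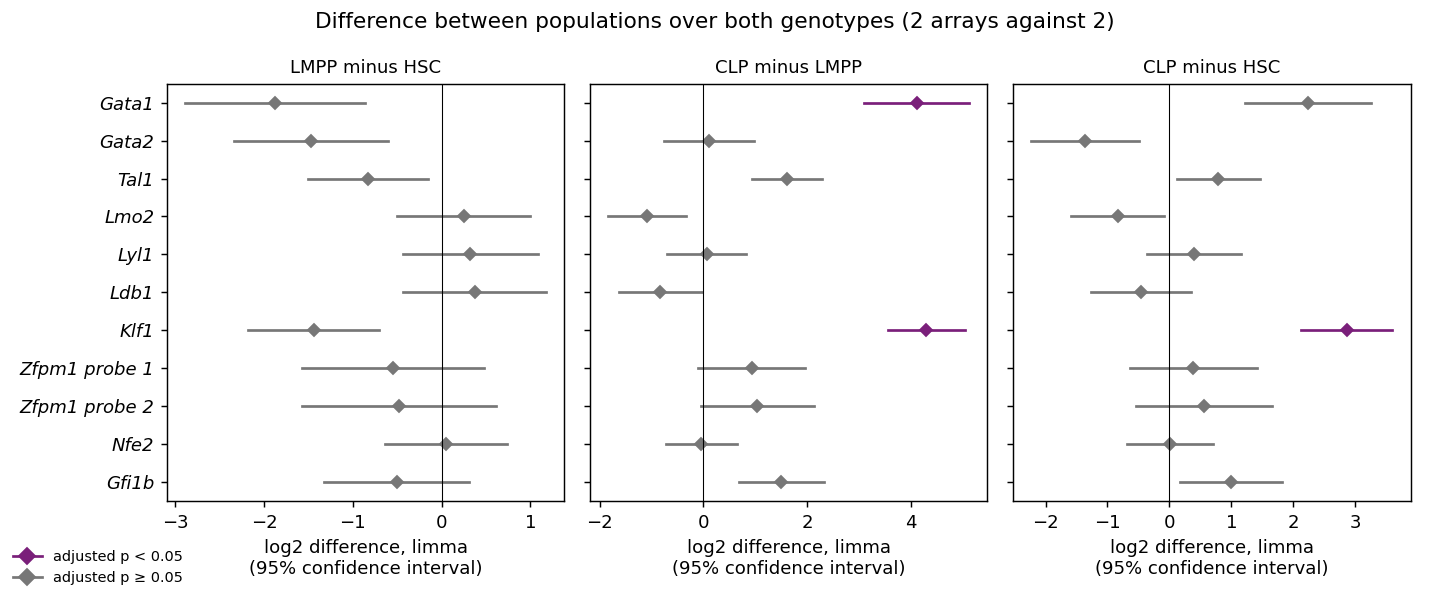
Diamonds plot the limma log2 difference of each probe between populations over both genotypes, and lines its 95% interval. Purple marks an adjusted p under 0.05: Gata1 (4.12) and Klf1 (4.30) for CLP minus LMPP, and Klf1 (2.86) for CLP minus HSC.

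Counted over the members, the limma fit called 2 of 11 probes in CLP against LMPP, Gata1 and Klf1, both higher, where it called 2.25% of all probes either way. It called 1 of 11 in CLP against HSC, Klf1, against 2.1% of all probes. It called 0 of 11 in LMPP against HSC, where no probe at all passed (0%), and 4 members had an unadjusted limma p under 0.05 there, Gata1, Gata2, Klf1 and Tal1, against 7.5% of all probes. At that unadjusted level 6 members passed in CLP against LMPP and 6 in CLP against HSC, against 21.7% and 22.8% of all probes. Without the rule that raises spots below background to a floor, the limma adjusted p for CLP against LMPP was 0.0549 for Gata1 and 0.0542 for Klf1, and that of Klf1 for CLP against HSC was 0.0543, so no member passed. No member value lay below that floor, so the rule changed no level of a member. Embryos shared between populations, if any, are not accounted for. With 1 array per group, the p-values rest on how far a difference varied between genotypes or populations, not on replicate animals or sorts.

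The same counts by the 2-fold rule, which needs no replicates, were as follows. In LMPP against HSC, 3 of 11 probes were past 2-fold lower in both genotypes, Gata1, Gata2 and Klf1, against 2.15% of all probes. In CLP against LMPP, 4 of 11 were past 2-fold higher in both genotypes, Gata1, Tal1, Klf1 and Gfi1b, against 6.17% of all probes. In CLP against HSC, Gata1 and Klf1 were past 2-fold higher in both genotypes, against 6.43% of all probes, and Gata2 was past 2-fold lower in both, against 7.74%. Either way and within 1 genotype, LMPP against HSC had 3 of 11 past 2-fold on the Satb1-null arrays and 3 on the WT arrays, against 17.5% and 17.4% of all probes. CLP against LMPP had 4 and 8, against 29.4% and 31.7%, and CLP against HSC had 3 and 5, against 29.4% and 34%. These comparisons share arrays with one another. In cell populations measured in bulk, fewer cells of a type and less RNA per cell cannot be told apart.

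Erythroid genes known as targets of these factors were far higher in CLP. Of 36 such genes 34 were matched and 31 were well above background on at least 1 array. Between CLP and LMPP 26 of 30 measured genes were past 2-fold higher on the Satb1-null arrays and 27 of 31 on the WT arrays, and none was past 2-fold lower. Among the 24 of them that were well above background on all arrays it was 20 in each genotype, against 12% and 12.1% of such genes in all. The median difference was 2.68 on the Satb1-null arrays and 3.5 on the WT arrays, against 2.6e-05 and -0.07 over all genes. The limma fit called 13 of 30, all higher in CLP, where it called 2.25% of all probes either way. Slc4a1, the anion exchanger band 3, rose by 5.22 (SE 0.62, limma adjusted p = 0.0437), and Ank1, the ankyrin that anchors it, rose by 4.72 (SE 0.44, limma adjusted p = 0.0373). Alas2, the erythroid enzyme that starts haem synthesis, differed by 5.16 without passing (SE 0.87, limma adjusted p = 0.0685). The membrane protein genes Epb41 and Gypc differed by 0.70 and 0.29 and did not pass.

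Megakaryocyte genes went both ways on the Satb1-null arrays. Of 21 measured genes 8 were past 2-fold higher and 4 lower in CLP than in LMPP on the Satb1-null arrays, and of 22 on the WT arrays 14 were higher and none lower. Of all genes 14.6% were higher and 14.5% lower on the Satb1-null arrays, and 14.5% and 17.9% on the WT arrays, so the share that was lower on the Satb1-null arrays was near that of all genes. Among the 18 well above background on all arrays, 7 were higher and 3 lower on the Satb1-null arrays (median 0.59). On the WT arrays 10 were higher and 0 lower (median 1.55). Of such genes in all, 12% were higher and 10.9% lower on the Satb1-null arrays, and 12.1% and 15.6% on the WT arrays. The limma fit called 2 of 21, both higher, where it called 2.25% of all probes: Thbs1, the platelet granule protein thrombospondin, which rose by 4.11 (SE 0.27, adjusted p = 0.0371), and Gp1ba, a chain of the von Willebrand factor receptor, which rose by 2.97 (SE 0.27, adjusted p = 0.0373). Itgb3, the beta chain of the platelet fibrinogen receptor, and Ppbp, a platelet chemokine, differed by 2.59 and 2.79 without passing. Plek and Mmrn1, bright on these arrays, differed by 0.25 and -0.72.

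**Figure D3:**
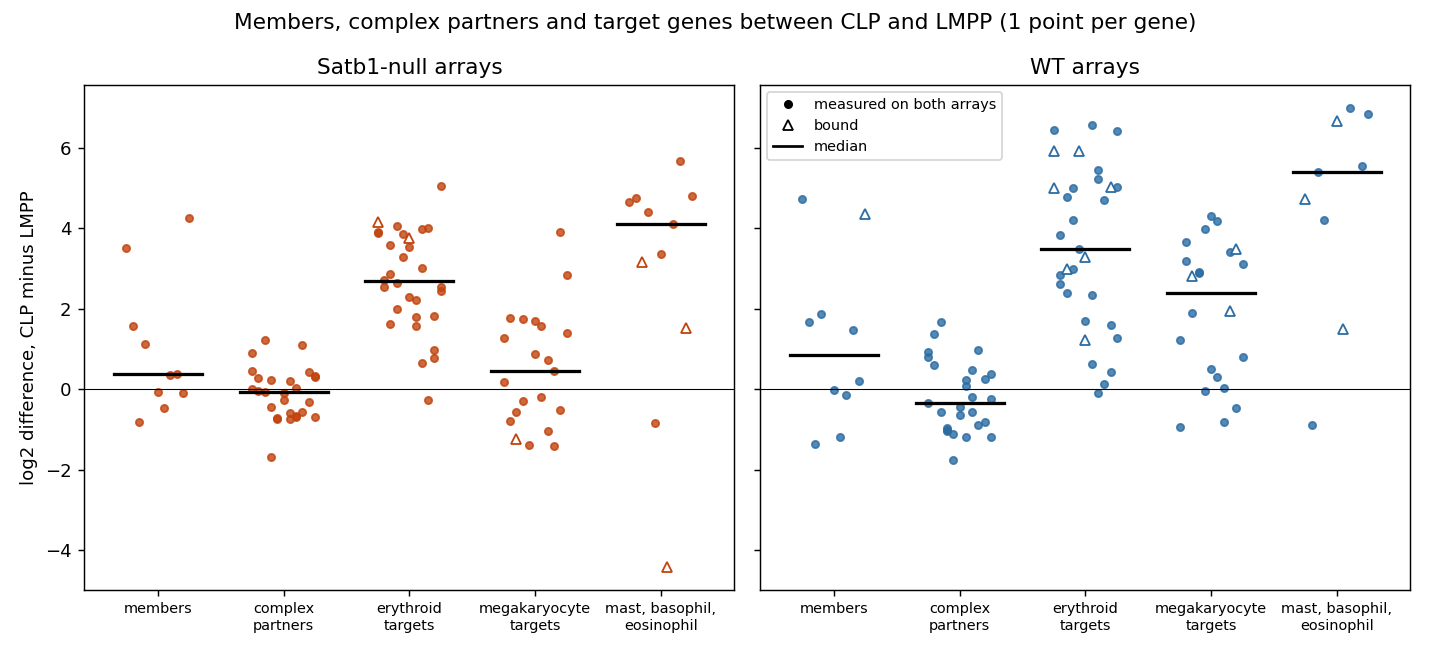
Each point is the log2 difference of 1 gene between CLP and LMPP on the Satb1-null arrays (left) and the WT arrays (right), by its brightest probe, with triangles where 1 array gives only a bound and black lines at the median of the list. The erythroid target genes centre on 2.68 and 3.5, while the complex partners centre on -0.08 and -0.34.

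Partners and corepressors that work with these factors did not share this shift. All 27 genes of this list, which holds E proteins, the Ssbp adaptors, the NuRD and LSD1 corepressors, Runx1 and the small Maf proteins, were well above background on every array. Between CLP and LMPP 2 were past 2-fold higher and 1 lower on the Satb1-null arrays, and 2 higher and 5 lower on the WT arrays, with medians of -0.08 and -0.34. Of all genes 14.6% were higher and 14.5% lower on the Satb1-null arrays and 14.5% and 17.9% on the WT arrays, so the 5 lower genes were near the share of all genes. The limma fit called 0 of 27 against 2.25% of all probes. Nfe2l2, a relative of Nfe2 that governs the response to oxidants, differed by 1.44 (SE 0.31, limma adjusted p = 0.0995), and Mta1, a NuRD subunit, by -1.32 (SE 0.36, limma adjusted p = 0.144). The histone-binding subunits Rbbp4 and Rbbp7 differed by 0.34 and -0.36.

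Among 19 measured paralogs and other lineage factors, limma called 1 higher and 1 lower in CLP than in LMPP. It called 2.25% of all probes either way. Sox6, which silences embryonic globin in red cells, stood at 1.5 and 0.74 in Satb1-null and WT CLP, against -5.34 and -3.52 in LMPP, where the Satb1-null spot was not well above background (limma adjusted p = 0.0371). Mecom, a stem cell factor, was not well above background in CLP of either genotype and stood at -0.66 and -0.72 in Satb1-null and WT LMPP (limma adjusted p = 0.0371). These 2 genes were picked out after their values were seen. Erg, an ETS factor of stem cells and megakaryocytes, differed by -1.52 (SE 0.26, limma adjusted p = 0.0711), and Gfi1, the myeloid relative of Gfi1b, by 1.06 (SE 0.25, limma adjusted p = 0.112). Gata5 and Klf6, bright on these arrays, differed by 0.29 and -0.85 and did not pass (limma adjusted p = 0.602 and 0.209). Gata5 stood between 7.06 and 7.86 over the 6 arrays, and Gata3 too was well above background on all 6. Gata4 was well above background on 1 array, and Gata6, Tal2, Lmo3 and Zfpm2 on none.

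The lists below, except the hepatocyte one, had their highest summed level in CLP in both genotypes, as Gata1 and Klf1 did. The dip of both genes in LMPP was not shared by all list sums. From HSC to LMPP the Satb1-null erythroid sum rose from 7.61 to 7.97, and the WT B lineage sum from 0.79 to 1.61. The WT erythroid sum went from 7.10 to 7.04, and the Satb1-null B lineage sum from 2.47 to 2.41. A sum follows its brightest genes, such as Hba-a1, at 5.01 in Satb1-null HSC and 6.23 in LMPP. The median erythroid gene differed by -0.24 from HSC to LMPP in each genotype. The summed log2 level of the erythroid list was 10.42 and 10.35 in Satb1-null and WT CLP, and between 7.04 and 7.97 in HSC and LMPP of both genotypes. For mast cell, basophil and eosinophil markers, 16 of them on the array, the sum was 7.49 and 7.83 in CLP of the 2 genotypes, 3.92 and 2.53 in LMPP and 4.91 and 4.46 in HSC. Between CLP and LMPP 9 of 11 measured genes of this list were past 2-fold higher on the Satb1-null arrays. On the WT arrays it was 8 of 9. Of all genes 14.6% and 14.5% were past 2-fold higher. Limma called 7 of 11, where it called 2.25% of all probes in this comparison. Among the 6 that were well above background on all arrays it was 5 past 2-fold higher in each genotype, against 12% and 12.1% of such genes. Il1rl1, the interleukin-33 receptor, rose by 5.81 (limma adjusted p = 0.0379), and the eosinophil granule genes Epx, Prg3 and Prg2 rose by 5.55, 5.14 and 4.38 (limma adjusted p = 0.0494, 0.0371 and 0.0468). The receptor gene Fcer1a and the eosinophil receptor gene Ccr3, both defining markers, stayed near background on all 6 arrays (not well above it on any). Macrophage sums lay between 4.94 and 5.16 in CLP and between 4.48 and 4.70 in the other populations, and limma called 4 of 10 of those markers in CLP against LMPP, with Adgre1 up by 4.05 (adjusted p = 0.0428). Of these markers 11 and 8 were detected in Satb1-null and WT CLP and 5 to 7 on the other arrays, and of the 2 well above background on all arrays 0 were past 2-fold in either genotype, with medians of 0.27 (Satb1-null) and -0.39 (WT). B lineage sums were 4.71 and 3.76 in Satb1-null and WT CLP and between 0.79 and 2.47 elsewhere, and limma called 3 of 13, with Pax5 up by 2.96 (adjusted p = 0.0455). Of the B lineage markers 14 and 13 were detected in Satb1-null and WT CLP but 5 to 10 on the other arrays, and of the 3 well above background on all arrays 1 was past 2-fold higher in each genotype and 1 lower in WT, with medians of 0.27 (Satb1-null) and -0.53 (WT). Hepatocyte sums lay between 1.57 and 2.16 on all arrays. The part of each of these cell types in the levels of the members was not tested.

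The mast cell proteases Tpsb2, Cma1 and Cpa3 were highest in HSC, as Gata2 was. Most markers of their list, which also holds basophil and eosinophil genes, were not. In CLP against HSC 8 of 12 measured markers were past 2-fold higher and 3 lower on the Satb1-null arrays. On the WT arrays 7 of 11 were higher and 2 lower. Of all genes 15% were higher and 14.1% lower on the Satb1-null arrays, and 17.8% and 15.8% on the WT arrays. Among the 6 markers well above background on all arrays, 5 were higher and 1 lower in each genotype. Of such genes in all, 12.6% were higher and 9.65% lower on the Satb1-null arrays, and 16.7% and 12.2% on the WT arrays. Tpsb2, a tryptase, stood at 3.15, -1.27 and -2.11 in Satb1-null HSC, LMPP and CLP, against 2.56, -0.69 and -1.57 in WT. Cma1, a chymase, stood at 1.08 and 0.05 in Satb1-null and WT HSC and was not well above background in LMPP or CLP. Cpa3, a carboxypeptidase, stood at 2.18 and 1.81 in Satb1-null HSC and CLP, against 1.59 and 0.69 in WT, and was lowest in LMPP. In LMPP relative to HSC Tpsb2 differed by -3.83 (SE 0.40) and the histamine enzyme gene Hdc by -3.11 (SE 0.25), both with a limma adjusted p of 0.518. Hdc was highest in CLP, at 3.85 and 3.17 in the Satb1-null and WT cells. Cma1, Tpsb2 and Cpa3 were set beside Gata2 after their values were seen.

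**Figure D4:**
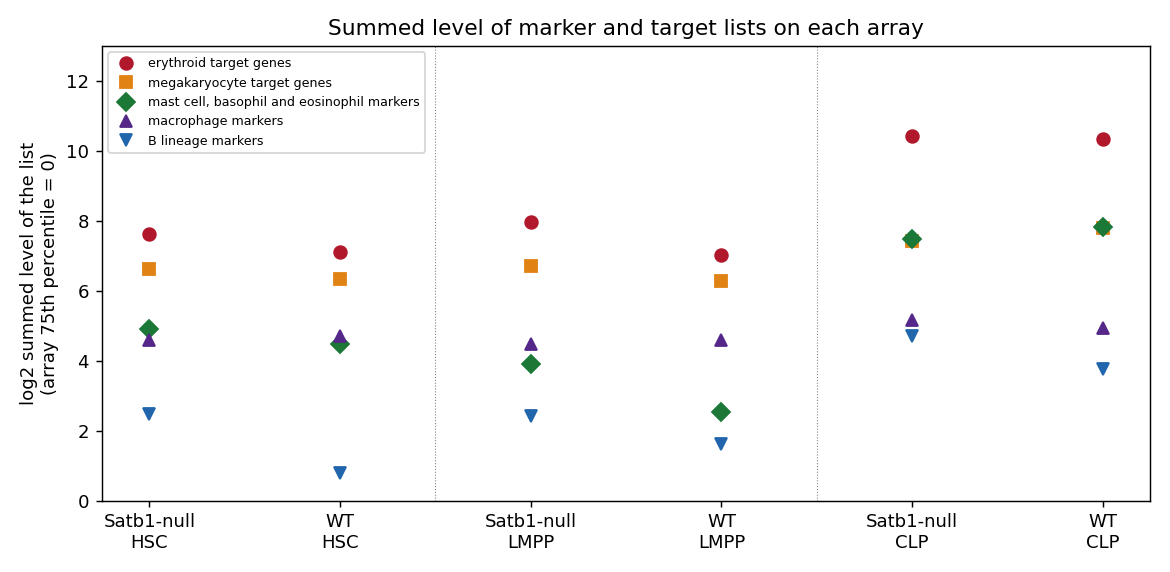
Points plot the log2 of the summed level of each marker or target list on each array, Satb1-null left of WT within each population. Erythroid sums reach 10.42 and 10.35 in CLP, and mast cell, basophil and eosinophil sums are lowest in LMPP, at 3.92 (Satb1-null) and 2.53 (WT).

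Over the 6 arrays, the genes whose profile was most like that of each of 4 members were found by Pearson correlation among 6484 to 6485 named genes well above background on every array with a span of at least 1. For Gata1 these were Ctsg (r = 0.9983), a myeloid granule protease, Tnfaip2 (0.9977) and Epor (0.9975), the erythropoietin receptor. For Gata2 they were Ppargc1b (0.9835), Fut8 (0.9827) and Slc18a2 (0.9682), the vesicular transporter of monoamines. For Tal1 they were Atp6v0a1 (0.9984), Papss2 (0.9962) and Ctsg (0.993), and for Klf1 Clint1 (0.9955), Siglecf (0.995) and Slc38a5 (0.9946). Siglecf is a surface lectin of eosinophils. Epor stood at 0.60, -0.94 and 1.79 in Satb1-null HSC, LMPP and CLP, against 0.00336, -1.75 and 2.09 in WT. With 6 arrays and so many candidates a high r is easily found, and the arrays share populations, so these names are a description.

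Between genotypes 2 of the 11 probes were past 2-fold in 1 population, LMPP, and none in HSC or CLP. In HSC all 11 probes were higher on the Satb1-null array, by between 0.15 and 0.65 on the log2 scale, where 50% of all probes were higher. For 9 the difference was larger than the scanner error, but how many of all probes exceed theirs was not counted. Past 2-fold were 0 of 11, against 18.6% of all probes. Of the 9 members well above background on all arrays it was 0, against 5.04% of such genes higher and 3.2% lower. Several other lists shifted the same way in HSC, but not all. Over genes, the median HSC difference was 0.41 for the members, 0.37 for the complex partners, 0.45 for the paralogs and other lineage factors, 0.56 for the erythroid target genes and 0.13 for all genes. It was 0.20 for the megakaryocyte genes and -0.07 for the macrophage markers. Of 27 measured erythroid target genes 7 were past 2-fold higher and 2 lower, against 8.42% and 5.85% of all genes, and of those well above background on all arrays it was 7 and 2 of 24, against 5.04% and 3.2%. Of 11 measured B lineage markers 7 were past 2-fold higher and 1 lower, with a median of 1.09, but only 3 were well above background on all arrays, 1 of them higher and 1 lower. The part of these cells in the HSC differences of the members was not tested. Gata2 showed the largest HSC difference, 3.27 on the Satb1-null array against 2.62 on the WT array, which is 1.56-fold. All 11 stayed above 0 under each of the other 5 scalings, while the scalings moved the median of all probes by between -0.12 and 0.18.

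In LMPP 2 of 11 probes were past 2-fold higher on the Satb1-null array, Gata1 and Klf1, against 7.12% of all probes higher and 12.4% either way. Of the 9 members well above background on all arrays 1 was past 2-fold higher, against 2.7% of such genes. Gata1 stood at 1.06 on the Satb1-null array against 0.05 on the WT array, 2.01-fold higher. Klf1 stood at -2.65 against -3.68 on the WT array, where it was not well above background, at least 2.04-fold higher. Both lay at the threshold: with normexp correction neither was past it, and with quantile normalization 1 was. Zfpm1 was 1.36-fold and 1.57-fold higher by its 2 probes, and Gfi1b 1.36-fold. Gata2 and Lmo2 were 1.18-fold and 1.19-fold lower on the Satb1-null array.

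Other erythroid and blood cell genes were higher on the Satb1-null LMPP array too. Of 28 measured erythroid target genes 15 were past 2-fold higher, 0 were past 2-fold lower and the median difference was 1.20, where 5.79% of all genes were higher. Among those well above background on all arrays it was 11 of 24, against 2.7% of such genes. Alas2 was 8.18-fold higher, at 0.43 on the Satb1-null array against -2.60 on the WT array, and Slc4a1 was 5.88-fold higher, at 3.97 against 1.42 on the WT array. The alpha globin genes Hba-a1 and Hba-a2, near-identical copies whose probes may share signal, were 5.28-fold and 5.72-fold higher. Of the beta globin genes Hbb-bt was 1.28-fold higher. Hbb-bs stood at 2.33 on the Satb1-null array against 0.27 on the WT array, and Hbb-b2 at 0.89 against 0.42. Of the megakaryocyte genes 8 of 21 were past 2-fold higher, led by Vwf at 6.49-fold and Itga2b at 5.03-fold. Of the mast cell, basophil and eosinophil markers 6 of 9 were, of the macrophage markers 3 of 8 and of the B lineage markers 6 of 10, with Epx 5.35-fold, Marco 6.27-fold and Vpreb1 5.05-fold higher. These counts hold markers that could be compared only because the Satb1-null array detected them. Among markers well above background on all arrays it was 3 of 6, 0 of 2 and 1 of 3, with a B lineage median of -0.17, and for the megakaryocyte genes 6 of 18. None of the 27 complex partners was past 2-fold either way. The part of these cell types in the LMPP differences of Gata1 and Klf1 was not tested.

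In CLP 0 of 11 probes were past 2-fold between genotypes, against 23.2% of all probes. Klf1 was 1.90-fold higher on the Satb1-null array, at 1.60 against 0.67 on the WT array, and Ldb1 1.56-fold higher, at 3.56 against 2.92. Zfpm1 was 1.57-fold and 1.58-fold lower by its 2 probes. Gata1 and Tal1, at 4.57 against 4.77 on the WT array and at 3.32 against 3.29, differed by no more than the scanner error. The erythroid target genes had a median difference of 0.17, with 0 of 31 past 2-fold higher and 1 lower, where 11.9% of all genes were higher and 8.32% lower. Of the complex partners Ldb2, a relative of Ldb1, was 3.05-fold lower and Ssbp4, an Ldb1-binding protein, 2.5-fold lower on the Satb1-null array.

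**Figure D5:**
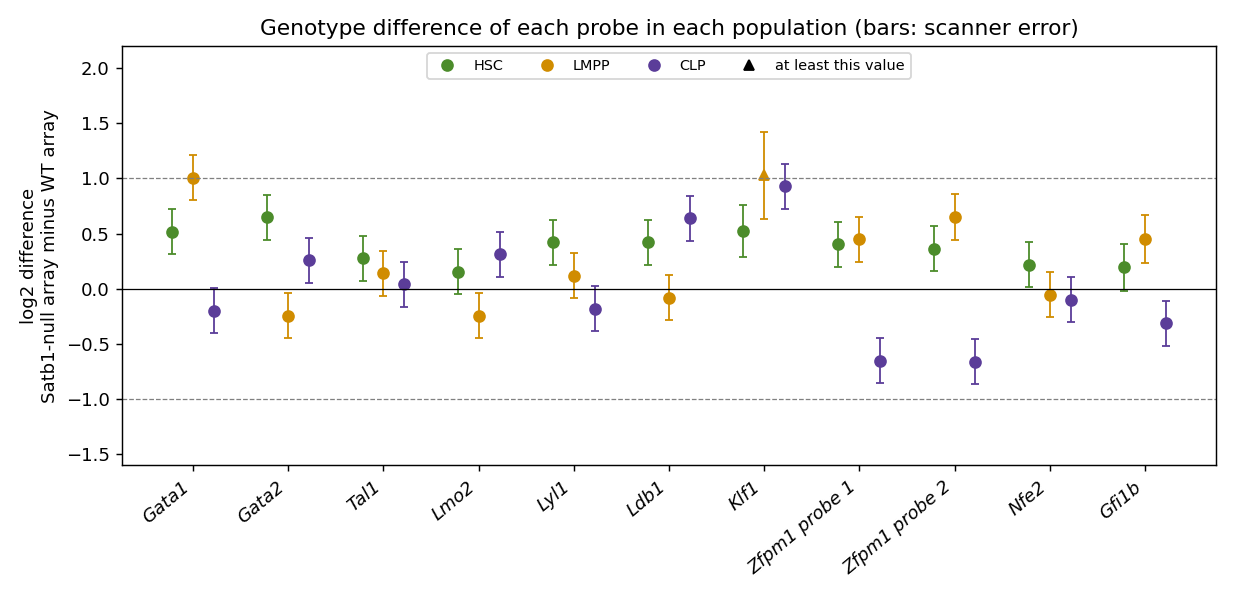
Points plot the log2 difference of each probe, Satb1-null array minus WT array, in HSC, LMPP and CLP, with bars for the scanner error of the difference, a triangle for a lower bound and dashed lines at 2-fold. The HSC points all lie above 0, between 0.15 and 0.65, and Gata1 (1.01) and Klf1 (at least 1.03) in LMPP reach the dashed line.

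Over the 3 populations Tal1 and Klf1 were higher on the Satb1-null array each time, as were 12.4% of all probes, but the Tal1 difference in CLP changed sign with the scaling and reached -0.02. No member was lower each time, as 17.2% of all probes were. The limma fit called 0 of 11 members between genotypes and 0.0121% of all probes, 4 in number. An unadjusted p under 0.05 was found for Klf1 alone among the members, at 0.83 (SE 0.23, unadjusted p = 0.0180, limma adjusted p = 0.804), and for 5.69% of all probes. The Gata1 genotype difference over the populations was 0.44, with a 95% limma interval from -0.39 to 1.27. The Nfe2 interval, from -0.54 to 0.58 stayed within 2-fold either way.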

How the data were processed

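RNA of 6 sorted fetal liver samples, 1 per genotype and population, was measured on 1-colour Agilent arrays. Per the labels' protocols, 6.1 ng of total RNA was amplified and labelled with Cy3. The deposited scanner files give a linear intensity per spot, made with Agilent Feature Extraction 10.10.1.1 per the file headers (10.10 per the submitters' processing notes). The values used are the scanner's processed green signal. The authors' deposited table equals that intensity times a constant per array, between 5.71 and 8.77, whose basis is unknown. Its column medians were 165.3, 145.6 and 124.9 for Satb1-null HSC, LMPP and CLP and 200.1, 140.2 and 120.7 for WT. It is linear, not centred by gene, and has no direction.

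Control spots (3671 of 62976 per array) and outlier spots (154 to 181) were left out. Log2 values were centred on the 75th percentile of the array, and spots of a probe were averaged. Names came from the files and, through RefSeq accessions, from a GRCm38.p6 gene table used for names alone. A gene of another list was represented by its brightest probe. A pair of arrays was compared for a probe if the brighter of them had it well above background. If the dimmer did not, the difference is a bound, taken against the dimmer array's detection limit (its lowest signal among probes well above background) or the probe's own value, whichever is higher. The fit used limma 3.58.1 in R 4.3.3 (lmFit, eBayes, two-sided) and was tested on simulated data. In it, spots not well above background were raised to that limit where they lay below it. The number of arrays limits the precision.

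Alternatives were other centrings, quantile normalization, the authors' values, normexp (offset 50), other folds and filters, no floor, and leaving out a population. Normexp was run on the median spot signal, a choice made after seeing the data. Genes named are all members, up to 4 genes of each list with the largest difference past 2-fold and 2 bright ones not past it, the sort and sex checks, and the 3 genes most like each of Gata1, Gata2, Tal1 and Klf1. A gene of the erythroid list that this rule names is not reported here. The members and lists were chosen with earlier results of these data known.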

Additional observations from a re-analysis of the deposited data

Results flagged for a closer look

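For 4 members the sign of the difference, Satb1-null array minus WT array, was not the same in all populations although each difference was larger than the scanner error. Each group has 1 array, so the change of sign was not tested. The share of all probes with such a change is not given, so the count does not set the members apart. Gata2 differed by 0.65 in HSC and 0.26 in CLP but by -0.24 in LMPP. Lmo2 differed by -0.25 in LMPP and by 0.31 in CLP. Zfpm1 differed by 0.40 in HSC, 0.45 in LMPP and -0.65 in CLP by probe 1, and by 0.36, 0.65 and -0.66 by probe 2. Gfi1b differed by 0.45 in LMPP and by -0.31 in CLP. All these differences were under 2-fold.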

How the results depend on the processing

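No difference of a member that passed its test or the 2-fold threshold changed sign under the alternatives run. Of 143 member values 25 changed sign, 15 differences of 2 arrays and 10 limma differences. Over all alternatives 100 of the main counts and values stayed close to those reported and 20 moved. No paired analysis was possible because the labels carry no replicate numbers and each group has 1 array. Leaving out the HSC, LMPP or CLP arrays left the count of members called between genotypes by limma at 0 each time, and leaving out a genotype leaves no residual degrees of freedom for the population contrasts, so that was not run.

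At a 1.5-fold threshold the member probes past it between genotypes were 1 in HSC and 4 in CLP (0 and 0 at 2-fold). Both Zfpm1 probes are among the 4 in CLP. The share of all probes at 1.5-fold or 3-fold is not given, so these counts do not set the members apart. In LMPP, 0 were past 2-fold with normexp, 1 with quantile normalization and 0 at 3-fold (2 as reported). For LMPP against HSC in WT the count was 1 with normexp and 7 at 1.5-fold (3 as reported). For CLP against LMPP at 3-fold it was 2 on the Satb1-null arrays and 5 on the WT arrays (4 and 8 as reported, either way). For CLP against HSC it was 6 on the Satb1-null arrays at 1.5-fold (3 as reported), and on the WT arrays 3 with normexp, 2 at 3-fold and 9 at 1.5-fold (5 as reported). By limma, 5 members passed for CLP against LMPP with normexp and 0 with no floor (2 as reported). For CLP against HSC 2 passed with median centring, normexp, no detection filter or 1 probe per gene, and 0 with no floor (1 as reported). Over all probes, the count of limma calls for CLP against LMPP was 746, and it was 482 with the percentile over detected probes, 2459 with normexp, 285 with quantile normalization, 1516 with no detection filter, 1139 with 1 probe per gene and 0 with no floor. For CLP against HSC the count over all probes was 695. It was 1253 with median centring, 2450 with normexp, 1544 with no detection filter, 1135 with 1 probe per gene and 0 with no floor. The cause of these shifts was not tested.

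Centring moved the median of all probes most in CLP against HSC on the WT arrays, by 0.50 with the array median. Dim spots limit Klf1 in LMPP, and 1 array per group limits every genotype difference.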
